A study of Mus musculus with 12 samples.

Results

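The crystallins described here are 10 genes of the alpha, beta and gamma families: Cryaa and Cryab (alpha), Cryba1, Cryba2, Cryba4, Crybb1, Crybb2 and Crybb3 (beta), and Crygs and Crygn (gamma). They were taken by symbol, 10 of the 24340 rows of the expression table, and all 10 were above 0 in at least 1 library. The table held RNA-seq values of whole mouse retinas from 6 mice, both retinas of each, in 4 groups of 3 libraries. All 6 mice carried p16-3MR, a transgene in which the p16 regulatory region drives luciferase, a red fluorescent protein and a viral thymidine kinase, so that ganciclovir (GCV) kills cells in which it is active. In 1 eye of each mouse the intraocular pressure (IOP) was held at 85 to 90 mm Hg for 60 min at an age of 12 to 16 weeks, and the retinas were taken on day 3. Mice 3, 4 and 6 were injected with PBS and gave the groups ctrl (normal-pressure eye) and IOP. Mice 1, 2 and 5 were injected daily with GCV at 25 mg/kg and gave ctrl-GCV and IOP-GCV. The control eye thus belonged to the same animal as the IOP-treated eye, and the GCV and PBS arms to different animals.

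Crystallins are the main soluble proteins of the lens. The alpha-crystallins belong to the small heat shock proteins and keep damaged proteins from aggregating. The beta- and gamma-crystallins share a fold built from repeated Greek key motifs and are packed at high concentration in lens fiber cells. Cryaa, the beta-crystallins and Crygs are best known from the lens, while Cryab is also made in muscle, heart, brain and retinal glia and is induced by stress. Several crystallins have been described in injured retina as well, so that the same transcripts can come from retinal cells or from lens tissue left on a dissected retina.

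The regulatory sequence is shown first because the lens program of these genes is read next to their start sites, where Maf factors of the lens bind in several crystallin genes. RefSeq upstream sequences (GRCm38.p6, the same assembly as the mm10 build of the submitters' processing notes) were found for 9 of the 10 crystallins, all but Cryab. The partial Maf recognition site TGCTGA occurred on either strand within 250 bases upstream of 8 of these 9, Crybb2 being the exception, against 16.1% of all 32841 upstream sequences of the same length. This short motif was chosen after the sequences had been seen. The outline of the full Maf recognition element, TGC and GCA with 7 bases between them, which reads the same on both strands, occurred in 2 of 9 (Cryaa and Crybb3, where it overlaps TGCTGA) and in 6.18% of all. The heat shock core GAANNTTC occurred in none of the 9 and in 6.7% of all, and the TATA box TATAAA in 3 of 9 (Cryba1, Crybb1 and Crygs) and in 12.4% of all. The 4 upstream sequences are printed, that of the major alpha-crystallin, of a beta-crystallin, and of Crygs and Crygn, whose levels diverged. Capitals mark TGCTGA or its reverse complement, the longer outline and TATAAA. Cryaa lies at chr17:31677681-31677930 on the plus strand, Crybb1 at chr5:112255570-112255819 on the plus strand, Crygs at chr16:22811411-22811660 on the minus strand and Crygn at chr5:24757849-24758098 on the minus strand.
Cryaa: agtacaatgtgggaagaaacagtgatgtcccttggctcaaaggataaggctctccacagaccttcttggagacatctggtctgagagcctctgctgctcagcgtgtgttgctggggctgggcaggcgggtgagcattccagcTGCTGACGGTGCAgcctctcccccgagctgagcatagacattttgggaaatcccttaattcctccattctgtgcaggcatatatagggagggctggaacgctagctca
Crybb1: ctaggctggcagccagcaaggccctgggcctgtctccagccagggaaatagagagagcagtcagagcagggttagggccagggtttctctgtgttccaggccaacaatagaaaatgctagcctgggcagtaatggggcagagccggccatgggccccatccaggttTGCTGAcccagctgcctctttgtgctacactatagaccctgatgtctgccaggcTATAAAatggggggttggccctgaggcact
Crygs: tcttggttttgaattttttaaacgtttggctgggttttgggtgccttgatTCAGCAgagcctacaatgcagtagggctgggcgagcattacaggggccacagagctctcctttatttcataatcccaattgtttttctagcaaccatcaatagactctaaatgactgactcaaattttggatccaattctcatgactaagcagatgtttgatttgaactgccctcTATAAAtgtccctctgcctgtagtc
Crygn: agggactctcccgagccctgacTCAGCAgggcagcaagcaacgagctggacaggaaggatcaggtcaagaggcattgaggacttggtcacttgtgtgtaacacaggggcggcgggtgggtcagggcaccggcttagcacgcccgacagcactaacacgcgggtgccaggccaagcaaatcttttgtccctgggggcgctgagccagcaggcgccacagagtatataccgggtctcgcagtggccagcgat
In Cryaa the partial site began 108 bases upstream of the start and formed the left end of the longer outline. In Crybb1 it lay at position -84, and in Crygs and Crygn it lay farther away and on the other strand, from -200 and from -228. Crygn thus carried the partial site although its level followed none of the other members.

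The values were taken as FPKM (fragments scaled to transcript length and to library size), a level per length that can be compared between genes. This unit was inferred from the values, and the comparisons between genes rest on it. Back-calculated depth was 3980000 to 8920000 fragments, lowest in IOP of mouse 6, and 18509 rows above 0 in at least 1 library were tested. Before the crystallins are described, the libraries have to be placed by a second lens measure. The lens fiber index is the mean log2(FPKM + 1) of 11 lens fiber genes that are not crystallins, among them Mip (the lens water channel), Lim2, the beaded filament proteins Bfsp1 and Bfsp2, the connexin Gja3, Lgsn, Lctl, the nuclease Dnase2b, Birc7 and Grifin. The index was 0.21, 0.34 and 0.29 in ctrl (mice 3, 4 and 6), 0.49, 2.99 and 2.83 in IOP, 2.96, 0.49 and 0.44 in ctrl-GCV (mice 1, 2 and 5), and 3.59, 2.40 and 3.02 in IOP-GCV. In all, 6 libraries therefore stood far above the other 6, and they cut across the labels: the high ones included a control retina, that of mouse 1, and the low ones included an IOP-treated retina, that of mouse 3. The summed level of the 11 genes was 2.22 to 3.22 FPKM in ctrl with 3 of them at 0 in all 3 libraries, 6.65 to 182 in IOP, 4.83 to 150 in ctrl-GCV and 96.3 to 240 in IOP-GCV. Lim2, a lens membrane protein, was at 0 in 2 libraries (ctrl and IOP of mouse 3) and reached 34.9 FPKM in IOP-GCV of mouse 1. The index was higher in the IOP-treated eye than in the control eye in 6 of 6 mice, by 1.77 ± 1.05 (mean difference ± SD, n = 6 mice, exact sign-flip permutation test, two-sided p = 0.0312, the smallest that 6 pairs allow). What part lens tissue had in the crystallin levels below was not tested, and results are given with single libraries left out or with the index in the model.

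Cryaa, the major lens chaperone, gave the widest range of the family. It measured 1.34, 14.1 and 13.8 FPKM in ctrl (mice 3, 4 and 6) and 32.6, 1842 and 1345 FPKM in IOP. In the GCV arm (mice 1, 2 and 5) it measured 3848, 25.1 and 52.4 FPKM in ctrl-GCV and 2545, 1380.1 and 2699.8 FPKM in IOP-GCV. The groups without GCV did not overlap, whereas in the GCV arm the single highest value of the series was that of a control retina. Within mice, log2(FPKM + 1) was higher in the IOP-treated eye in 5 of 6 (by 3.84 to 6.93) and differed by -0.60 in mouse 1.

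Cryab, the stress-inducible alpha-crystallin, had a floor that Cryaa lacked. It measured 63.1, 69.9 and 96.5 FPKM in ctrl and 199, 828 and 872 FPKM in IOP. In ctrl-GCV it measured 2032, 78.8 and 83.8 FPKM and in IOP-GCV 1200.3, 674 and 2552 FPKM. The 5 control retinas other than that of mouse 1 thus lay between 63.1 and 96.5 FPKM, a spread of less than 2-fold over libraries in which Cryaa ranged from 1.34 to 52.4. In these 5 libraries Cryab was the highest of the 10 crystallins, and it exceeded Cryaa, at 160% to 4700% of its level. In the 6 libraries with over 1000 FPKM of Cryaa it stood at 45.0% to 94.5% of Cryaa. The IOP-treated retina of mouse 3 had Cryab at 610% of Cryaa, within the range of those 5 control retinas. At 199 FPKM its Cryab level lay above theirs. Its lens fiber index (0.495) was nearly that of ctrl-GCV of mouse 2 (0.485), and set against that library Cryab was 2.52-fold higher. The other members ran from 0.964-fold (Crybb3) to 1.96-fold (Cryba1), with Cryaa at 1.30-fold and Crygs at 1.03-fold. The exception was Crygn, at 3.83-fold on about 0 to 10.8 fragments a library. Among gamma-crystallins outside the members, Crygc was at 2.87-fold, Crygb at 0.959-fold and Crygd at 0.448-fold. This compares 1 library with 1 other and has no replicate.

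**Figure D1:**
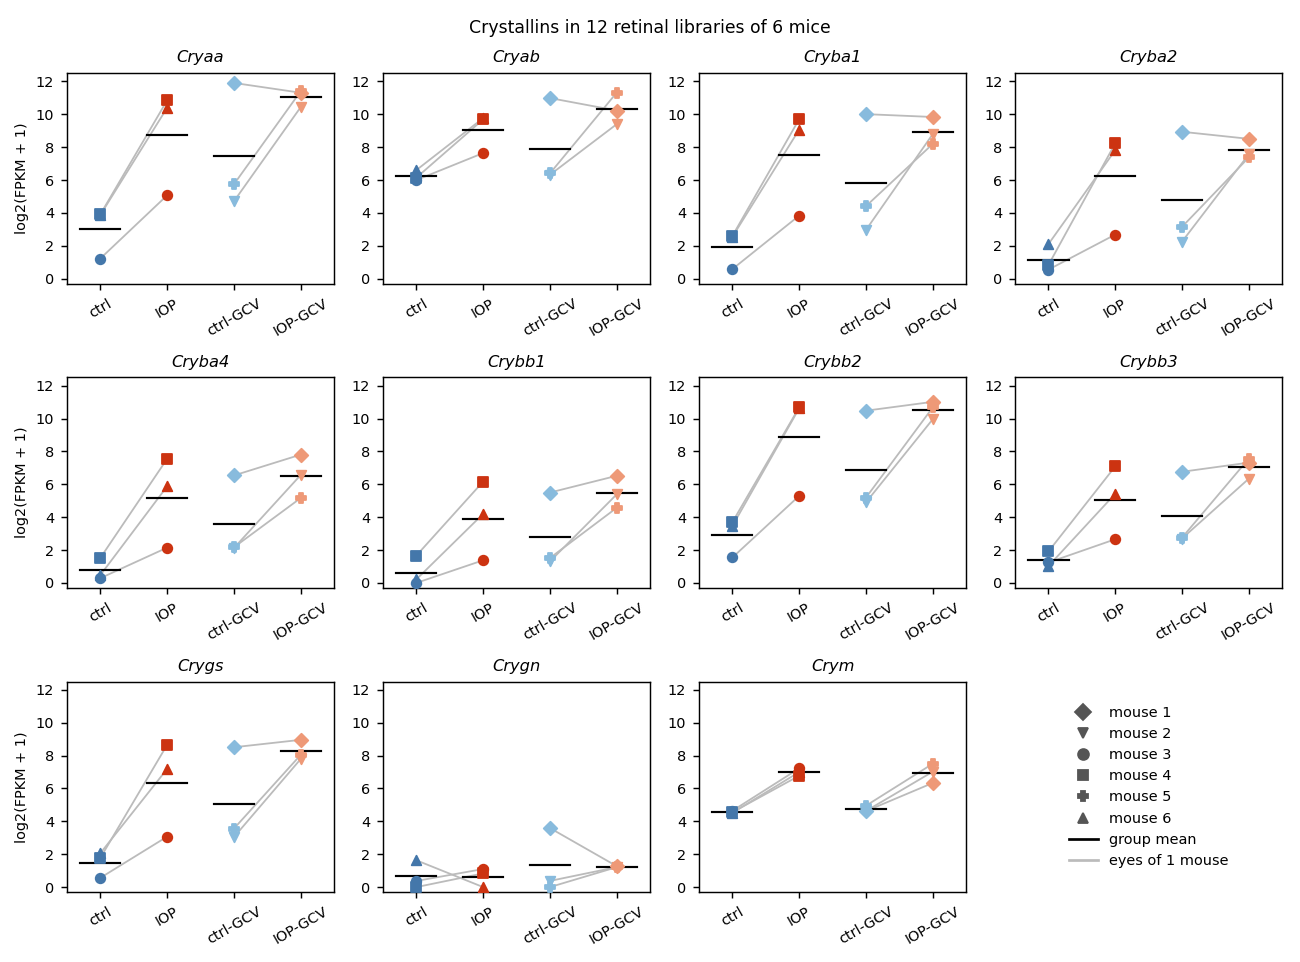
Level of the 10 crystallins and of Crym in each library, as log2(FPKM + 1) on the vertical axis, by group on the horizontal axis (n = 3 libraries a group). Each symbol is a mouse, gray lines join the 2 eyes of a mouse and black bars are means of the log2 values. The other 9 crystallins share 1 outline, with mouse 1 high in both eyes and mouse 3 low in both, while Crygn stays below 2.1 FPKM in all libraries but the 11.1 FPKM of ctrl-GCV mouse 1, and Crym rises in every pair.

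Among the beta-crystallins, Crybb2 was the most abundant. It measured 1.92, 12.0 and 10.1 FPKM in ctrl, 38.3, 1640.0 and 1579.8 FPKM in IOP, 1423, 28.8 and 35.4 FPKM in ctrl-GCV, and 2068, 991 and 1631 FPKM in IOP-GCV. Unlike Cryaa, it was higher in the IOP-treated eye of every mouse, by 0.54 (mouse 1) to 7.16 (mouse 6) on the log2(FPKM + 1) scale. Cryba1 followed with 0.501, 5.09 and 4.88 FPKM in ctrl, 13.3, 836 and 538 FPKM in IOP, 1031, 6.81 and 20.3 FPKM in ctrl-GCV, and 914, 443 and 293 FPKM in IOP-GCV. Cryba2 followed nearly the same order of libraries at a lower level, from 0.467 to 490 FPKM, with its highest value again in ctrl-GCV of mouse 1. Cryba4, Crybb1 and Crybb3 peaked instead in an IOP-treated retina. Cryba4 reached 222 FPKM and Crybb1 90.5 FPKM in IOP-GCV of mouse 1, against 91.8 and 44.1 FPKM in the fellow eye. Crybb3 reached 187 FPKM in IOP-GCV of mouse 5 and 107 FPKM in ctrl-GCV of mouse 1. Crybb1 was at 0 in ctrl of mouse 3, and the 3 ctrl libraries (0, 2.17 and 0.162 FPKM) overlapped those of IOP (1.60, 70.8 and 17.4 FPKM).

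Crygs, a gamma-crystallin made late in lens development, measured 0.478, 2.43 and 3.18 FPKM in ctrl, 7.39, 401 and 145 FPKM in IOP, 363, 7.21 and 10.8 FPKM in ctrl-GCV, and 497, 220.0 and 262 FPKM in IOP-GCV. It was higher in the IOP-treated eye in 6 of 6 mice, by 0.45 in mouse 1 and by 2.51 to 6.87 in the others. Crygn, which joins features of the beta- and gamma-crystallins, behaved otherwise. It measured 0.296, 0 and 2.10 FPKM in ctrl, 1.14, 0.783 and 0 FPKM in IOP, 11.1, 0.298 and 0 FPKM in ctrl-GCV, and 1.42, 1.32 and 1.32 FPKM in IOP-GCV. These were about 0 to 10.8 fragments a library, except for about 49.6 in ctrl-GCV of mouse 1. It was higher in the IOP-treated eye of 4 mice and lower in mice 1 and 6, and both groups overlapped in both arms.

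By group mean, the order of levels was not the same everywhere. In ctrl, Cryab led (76.5 ± 17.7 FPKM, SD, n = 3), ahead of Cryaa (9.73 ± 7.27) and Crybb2 (8.0 ± 5.35), and Cryab and Cryaa were the only neighbors in this order whose ranges did not overlap. In IOP-GCV, Cryaa led (2208 ± 721 FPKM), ahead of Crybb2 (1564 ± 542) and Cryab (1475 ± 968), and Cryaa was above Crybb2 in 3 of 3 libraries but Crybb2 above Cryab in only 2. Crybb1 was the lowest of the 9 members other than Crygn in all 4 groups, at 0.778 ± 1.21 FPKM in ctrl and 51.3 ± 35.1 FPKM in IOP-GCV. In IOP and ctrl-GCV the SD was near or above the mean for most members (Cryaa 1073 ± 935 and 1309 ± 2199 FPKM), and the ranges of neighbors in those orders overlapped, except that Crygn lay below Crybb1 in IOP. Together the 10 genes made up 0.0150% (ctrl, mouse 3) to 2.03% (ctrl-GCV, mouse 1) of all FPKM in a library.

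The first comparison asked whether pressure injury changed the crystallins within each arm, using limma on log2(FPKM + 1) with adjustment over all rows tested (call at an adjusted p under 0.05). Without GCV, 9 of 10 members were higher in IOP than in ctrl and the median difference was 4.63 (all rows 0), but none was called, against 1.65% of all rows. At an unadjusted p under 0.05, 9 of 10 passed, all but Crygn, against 18.9% of all rows. Crybb2 differed by 5.96 ± 1.66 (log2, SE, adjusted p = 0.118), Cryaa by 5.76 ± 1.91 (0.180), Crygs by 4.84 ± 1.55 (0.171) and Cryab by 2.78 ± 1.12 (0.231). In 8 of 10 the IOP libraries all lay above the ctrl libraries, against 11.7% of rows.

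With GCV, the differences were lower on the log2 scale and the groups overlapped throughout. The median difference was 3.02, 9 of 10 were higher, none was called (1.8% of all rows were) and 2 of 10 passed unadjusted, Crybb2 and Crybb3, against 19.2%. With the mouse as a replicate block, 7 of 10 passed unadjusted with GCV (19.1% of rows) and 9 of 10 without GCV (18.8%), and none was called in either arm. Crybb2 differed by 3.69 ± 1.66 (adjusted p = 0.258), Cryaa by 3.60 ± 1.91 (0.338), Crygs by 3.23 ± 1.55 (0.289) and Cryab by 2.41 ± 1.12 (0.275). These sizes rested on single libraries: without ctrl-GCV of mouse 1 they were 5.50, 5.83, 4.97 and 3.95, and without ctrl-GCV of mouse 2 they were 2.72, 2.22, 2.23 and 1.62. Without both eyes of mouse 5, Cryab was at 1.16. None of these was called. In 0 of 10 did the IOP-GCV libraries all lie above those of ctrl-GCV, against 14.5% of rows, because ctrl-GCV of mouse 1 lay above at least 1 of them each time. Crygn differed by -0.02 ± 0.81 without GCV and by -0.09 ± 0.81 with it (adjusted p of 1 for both), and these signs turned in some of the fits that left out 1 library.

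Averaged over both arms, 5 of 10 members were called, all higher in IOP-treated retinas, against 12.2% of all rows called and 6.76% called higher. Unadjusted, 9 of 10 passed against 30.3% of rows. The called genes were Crybb2 (4.83 ± 1.17, adjusted p = 0.0297), Crybb3 (3.33 ± 0.85, 0.0344), Crygs (4.03 ± 1.10, 0.0416), Cryba4 (3.66 ± 1.03, 0.0453) and Cryaa (4.68 ± 1.35, 0.0489). Cryba1 (4.39 ± 1.30, 0.0533), Cryab (2.60 ± 0.79, 0.0571), Cryba2 (4.06 ± 1.24, 0.0578) and Crybb1 (3.00 ± 0.93, 0.0589) missed the threshold narrowly, and Crygn (-0.06 ± 0.57, 0.961) showed no difference that these libraries could resolve. With the mouse as a block, which compares each IOP-treated eye with its fellow eye, 7 of 10 were called (7.3% of all rows), Cryba1 (0.0388) and Crybb1 (0.0310) being added. By eye pair, 5 of 10 were higher in all 6 mice (10.7% of rows) and 9 of 10 in at least 5 mice (22.6%). The count rested on single libraries. It was 9 without ctrl-GCV of mouse 1, 8 without IOP of mouse 3, 4 without IOP of mouse 4, 2 without IOP-GCV of mouse 2, 1 without IOP-GCV of mouse 1, and 0 without any one of the other 7 libraries. These were the 3 ctrl libraries, IOP of mouse 6, ctrl-GCV of mice 2 and 5, and IOP-GCV of mouse 5.

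The second comparison asked which crystallins moved with the other lens fiber genes among libraries of the same group, where neither IOP nor GCV differs. The slope of log2(FPKM + 1) on the lens fiber index was fitted beside the 4 group means. It was called, and positive, for 6 of 10 members, against 0.0594% of all rows and 0.054% called with a positive slope (11 rows in all, of which 3 others, Bfsp2, Grifin and Lim2, belong to the index itself). The other 2 were Tmem40 (0.69 ± 0.08) and Npm3 (-0.33 ± 0.04). Unadjusted, 9 of 10 passed against 4.37% of rows. The slopes were steepest for Cryaa (2.37 ± 0.30 log2 units per unit of index, adjusted p = 0.0364), Cryba1 (2.31 ± 0.27, 0.0239) and Cryba2 (2.24 ± 0.22, 0.00944), followed by Crybb2 (2.10 ± 0.21, 0.00944), Crygs (1.98 ± 0.18, 0.00831) and Crybb3 (1.51 ± 0.16, 0.0156). Cryba4 (1.78 ± 0.25, 0.0607), Crybb1 (1.58 ± 0.24, 0.110) and Cryab (1.32 ± 0.22, 0.197) had positive slopes that were not called. Crygn had the flattest slope (0.53 ± 0.30, 0.999), and it was -0.22 without ctrl-GCV of mouse 1. With the mouse as a block no slope was called, of members or of any other row. The 6 calls also fell to 0 without IOP of mouse 3, and to 1, 2 and 3 without ctrl-GCV of mice 5, 2 and 1. Since the index changes of the 6 eye pairs fell into separate sets (0.28 and 0.63 in mice 3 and 1, and 1.92 to 2.65 in the other 4), no correlation of eye-pair changes was computed.

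**Figure D2:**
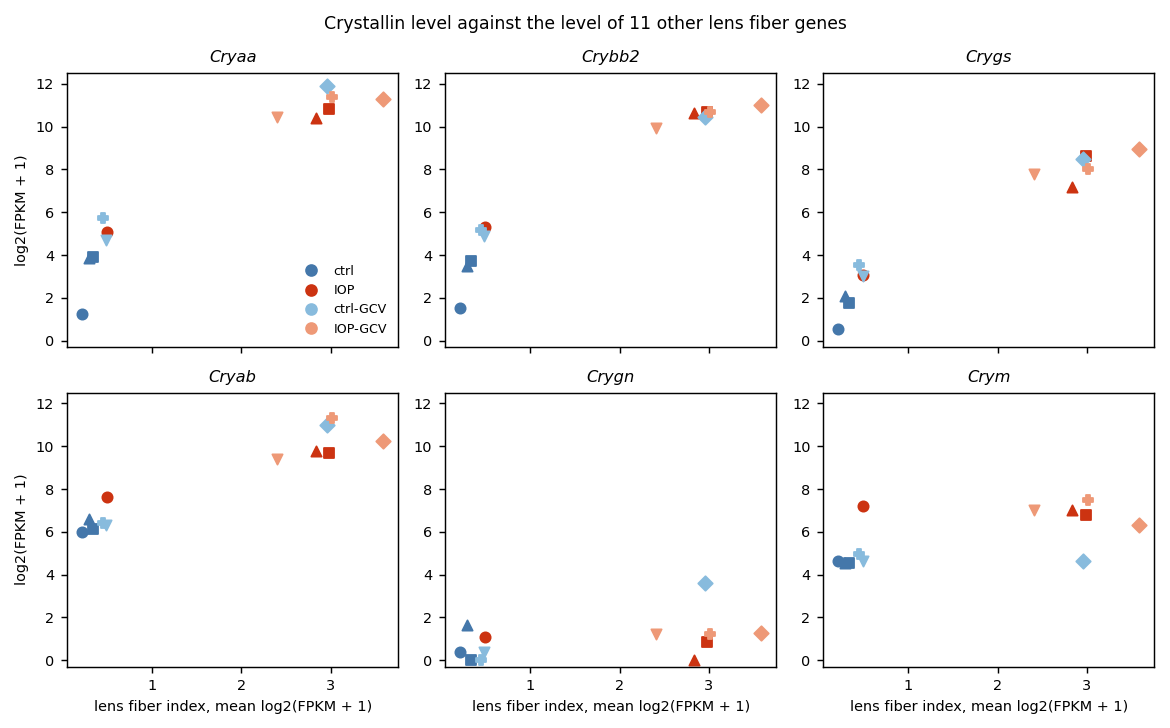
Level of 6 genes, log2(FPKM + 1), against the lens fiber index, the mean log2(FPKM + 1) of 11 lens fiber genes other than crystallins, in 12 libraries (color, group; symbol, mouse as in the plot of levels by group). Cryaa, Crybb2 and Crygs climb steeply with the index, Cryab starts from a floor of 63.1 FPKM, Crygn is flat apart from ctrl-GCV of mouse 1, and Crym separates IOP-treated from control libraries at low and high index alike.

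With the index in the model, the IOP difference of the members other than Crygn was smaller. Averaged over both arms, no member was called (1.64% of all rows were, 1.51% with a higher level) and none passed unadjusted. In the arms taken singly none was called either, against 0.135% of rows without GCV and 0.411% with GCV. Cryaa differed by 0.49 ± 0.73 (adjusted p = 0.768), Cryab by 0.26 ± 0.55 (0.848), Cryba2 by 0.11 ± 0.54 (0.949), Crygs by 0.53 ± 0.45 (0.537) and Crygn by -0.998 ± 0.748 (0.476). Crybb2 kept the largest difference, 1.11 ± 0.51 (0.236). Without GCV it was 2.12 ± 0.63 (0.244, unadjusted p = 0.00795) and with GCV 0.10 ± 0.62 (0.961). With GCV and the index, 4 of 10 members had positive differences, and those of Cryba1 (-0.80), Cryba2 (-0.79), Cryaa (-0.46), Crygs (-0.16), Cryba4 (-0.14) and Crygn were negative. The index itself was higher in every IOP-treated eye, so that a difference shared by the index and by IOP cannot be told apart in this model.

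**Figure D3:**
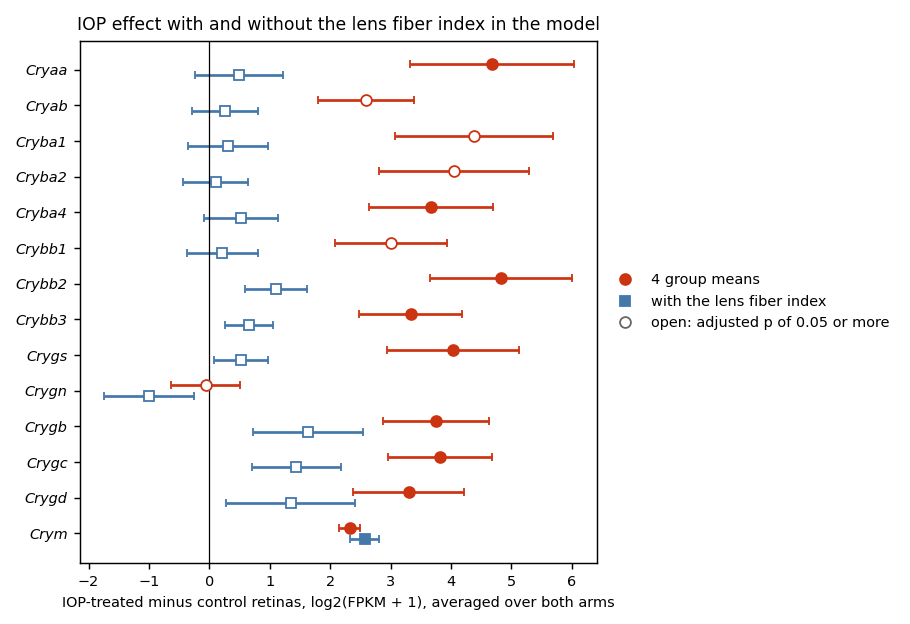
Difference between IOP-treated and control retinas averaged over both arms (horizontal axis, log2(FPKM + 1), bars ± SE) for 10 crystallins, 3 genes of the gamma cluster and Crym, from the 4 group means (red circles) and with the lens fiber index in the model (blue squares). Open symbols had an adjusted p of 0.05 or more. With the index, the 9 crystallins other than Crygn move toward 0, from 4.68 to 0.49 for Cryaa, whereas Crygn lies at -0.998 and Crym at 2.57.

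The crystallins did not keep 1 set of proportions in the libraries where they were high. In the 6 libraries with over 1000 FPKM of Cryaa, Crygs stood at 9.43% to 21.8% of Cryaa, Crybb2 at 37.0% to 117% and Cryba4 at 1.29% to 10.1%. The ratios of Crygb, Crygc and Crygd, genes of the gamma cluster of chromosome 1, varied more than those of the members other than Crygn. Crygn, low throughout, ran from 0% (IOP of mouse 6) to 0.288% (ctrl-GCV of mouse 1). The gamma cluster holds Cryga to Cryge, with Crygf nearby, and its genes are transcribed in lens fibers. Summed FPKM of Crygb, Crygc and Crygd was 24.0% of Cryaa in IOP of mouse 4, 18.1% in IOP-GCV of mouse 1, 14.0% in IOP-GCV of mouse 2 and 7.43% in IOP of mouse 6. It was only 1.40% in IOP-GCV of mouse 5 and 0.835% in ctrl-GCV of mouse 1. These last libraries had the highest Cryaa of all (2699.8 and 3848 FPKM) and, of the 12, the highest levels of Foxe3, a lens epithelium transcription factor: 25.2 FPKM in IOP-GCV of mouse 5 and 4.13 in ctrl-GCV of mouse 1, against 3.35 in IOP-GCV of mouse 1 and at most 0.413 elsewhere. As a share of Cryaa, Foxe3 was 0.934% in IOP-GCV of mouse 5 but only 0.107% in ctrl-GCV of mouse 1, below the 0.132% in IOP-GCV of mouse 1. Foxe3 was picked after its values had been seen. Lgsn and Bfsp1, by contrast, were highest in IOP-GCV of mouse 1 (62.0 and 43.9 FPKM).

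**Figure D4:**
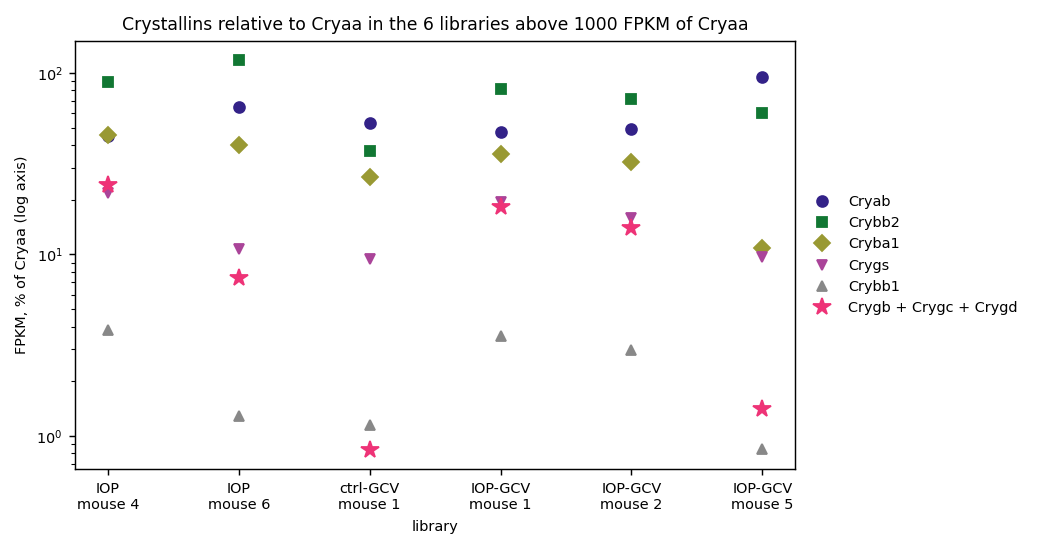
Level of 5 crystallins and the sum of 3 gamma cluster genes as a percentage of Cryaa (log axis) in each of the 6 libraries with over 1000 FPKM of Cryaa, 1 point a library (Cryab lies under Cryba1 in IOP mouse 4). The gamma cluster spans 0.835% to 24.0%, a wider range than any of the 5 crystallins shown, and is lowest in ctrl-GCV mouse 1 and IOP-GCV mouse 5.

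Because of this, the gamma cluster split the eyes of mouse 1 differently from Cryaa. In that mouse Cryaa was lower in the IOP-treated eye by 0.60 log2 units, and Crygb, Crygc and Crygd were higher by 3.84, 3.36 and 4.02. All 3 were higher in the IOP-treated eye of 6 of 6 mice, against 10.7% of rows. In the average over both arms they were called, at 3.76 ± 0.88 (adjusted p = 0.0261), 3.82 ± 0.87 (0.0234) and 3.30 ± 0.92 (0.0441), against 12.2% of all rows. With the index in the model none was called (1.63 ± 0.91, 1.44 ± 0.74 and 1.35 ± 1.06, adjusted p of 0.280 to 0.502). Crygb ran from 0 to 192 FPKM, Crygc from 0.317 to 138 and Crygd from 0 to 133. Cryga reached 1.94 FPKM at most, Crygf 2.01 at most, and Cryge was listed at 0 in all 12 libraries. Cryga and Crygf were higher in the IOP-treated eye of 2 and 3 mice and were not called in the average. The Cryge and Crygf transcripts are 96.2% identical over 625 aligned bases and Crygd and Cryge 91.8% over 594, so that reads of these 3 genes may have been shared or lost in counting and their separate values are uncertain. Among the 10 members, Cryaa and Cryab were 71.4% identical over 518 aligned bases and Crybb1 and Crybb3 71.1% over 643.

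The 4 genes that carry the crystallin name outside these families are metabolic enzymes or relatives of such enzymes: Crym, Cryz, Cryl1 and Cryzl1. Of these 4, 1 was called. Crym, a thyroid hormone-binding ketimine reductase, measured 24.0, 22.5 and 22.0 FPKM in ctrl and 148, 109 and 127 FPKM in IOP. In the GCV arm it measured 23.6, 23.7 and 29.9 FPKM in ctrl-GCV and 79.7, 129 and 181 FPKM in IOP-GCV. Every IOP-treated retina was above every control retina, including the pairs of mice 1 and 3 in which the lens fiber genes differed least. It rose by 2.42 ± 0.24 without GCV (adjusted p = 0.00460) and by 2.22 ± 0.24 with GCV (0.00368). Averaged, the rise was 2.32 ± 0.17 (1.57e-04), and with the lens fiber index in the model 2.57 ± 0.24 (0.00323). Its slope on the index was -0.14 ± 0.10 (adjusted p = 0.999). Without both eyes of mouse 3 the rise without GCV was no longer called (adjusted p = 0.0803), and with index and mouse block together none of the 3 was (0.801, 0.605 and 0.494). Cryz, Cryl1 and Cryzl1 differed by -0.13 ± 0.13, 0.04 ± 0.17 and -0.18 ± 0.09 and were not called.

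The small heat shock proteins are relatives of the alpha-crystallins. Of 6, 1 was called in the average over both arms, in which 12.2% of all rows were, and the counts of the heat shock response genes (2 of 11) and lens transcription factors (1 of 10) were near that share too. Hspb1, a chaperone of stressed glia and neurons, rose by 1.31 ± 0.30 (adjusted p = 0.0234), with 0.988 to 4.29 FPKM in control retinas and 2.80 to 9.21 FPKM in IOP-treated ones. With the index in the model it differed by 0.79 ± 0.38 (0.257). Of 11 heat shock response genes, Bag3 rose (0.62 ± 0.16, 0.0387) and Hspa4l fell (-0.27 ± 0.06, 0.0221). Of 10 lens transcription factors, most of which are also retinal, Pax6 fell (-0.68 ± 0.18, 0.0361) and 5 of 10 had positive differences. Of the 11 lens fiber genes all 11 were higher in each arm and 0 were called there, and in the average Lgsn (3.48 ± 0.74, 0.0181), Bfsp2 (2.46 ± 0.56, 0.0234) and Bfsp1 (3.09 ± 0.79, 0.0343) rose. In bulk tissue, fewer cells of a type and less RNA per cell cannot be told apart, which applies to each list.

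Other cell types also moved with IOP. Here rose and fell mean called in the average over both arms. Of all rows, 12.2% were called there, 6.76% as higher. All 12 reactive glia genes rose (Stat3 1.77 ± 0.11, Edn2 3.81 ± 0.26 and Cebpd 3.23 ± 0.22, adjusted p of 1.06e-04 to 1.31e-04), and 7 of 8 leukocyte genes rose (Ccr2 2.39 ± 0.22, Cd52 3.95 ± 0.42 and Ms4a7 3.19 ± 0.37). The summed leukocyte list was 9.43 to 55.6 FPKM in ctrl, 370 to 790 in IOP, 14.6 to 43.7 in ctrl-GCV and 207 to 2665 in IOP-GCV. Of 8 Mueller glia genes Apoe rose (0.96 ± 0.23), and Glul (-1.28 ± 0.27) and Rlbp1 (-0.65 ± 0.17) fell, and 7 of 8 ganglion cell genes fell (Nefh -1.12 ± 0.24, Pou4f2 -1.51 ± 0.36 and Nefl -1.70 ± 0.41). Of 8 rod genes, 9 pigment epithelium genes, 6 genes of cornea, iris and ciliary body and 6 of 7 blood genes with values, none was called. The retinal identity of the samples was plain from the rod genes, at 30394 to 55767 FPKM in sum. The part of these cell types in the crystallin levels was not tested.

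The third comparison asked whether GCV altered the crystallins. The IOP difference on the signed log2 scale was lower with GCV than without for all 10 members, by 0.07 (Crygn, negative in both arms) to 2.48 (Cryba1, -2.48 ± 2.61), none was called or passed unadjusted (0 rows of the whole table were called and 1.93% passed unadjusted), and the adjusted p was at least 0.997. This direction rested on single libraries: without ctrl-GCV of mouse 1 the IOP difference was higher with GCV for 7 of 10, without IOP of mouse 4 for 3, and without any other single library for 0 or 1. Between IOP-treated retinas, all 10 were higher with GCV, by 0.59 (Crygn) to 2.28 (Cryaa, 2.28 ± 1.91), again with none called or passing unadjusted (0 and 4.18% of rows). Without IOP of mouse 3, the IOP library with the lowest lens fiber index, 6 of 10 were higher, Cryaa by 0.43, and Cryba1 (-0.45), Cryba2 (-0.21), Cryba4 (-0.20) and Crybb2 (-0.11) had negative differences. Between control retinas all 10 were higher with GCV too, none was called (0 rows were) and 4 of 10 passed unadjusted, against 1.59% of rows: Cryaa (4.44 ± 1.91), Crybb2 (3.95 ± 1.66), Crybb3 (2.67 ± 1.2) and Crygs (3.57 ± 1.55). In all of these the control retina of mouse 1 was the highest of its group. Without it they were 2.21, 2.14, 1.33 and 1.83, none of the 10 passed unadjusted and Crygn was at -0.48. The 4 became 0 to 7 with each of the 12 libraries left out in turn. The standard errors, near 2 log2 units for Cryaa, show that effects of several fold in either direction could not have been resolved with 3 mice an arm.

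The rows most like each crystallin over the 12 libraries were found by Pearson correlation of log2(FPKM + 1) among 12910 rows with a mean of at least 1 FPKM outside the family. For 8 members the closest 3 were all lens fiber genes of the list, which is a description over libraries that fall into a high and a low set. For Cryaa, Cryba1, Cryba2, Crybb2, Crybb3 and Crygs they were Grifin, Lim2 and Bfsp2, with r from 0.929 to 0.980. For Cryba4 and Crybb1 they were Lim2, Lctl and Grifin (r from 0.958 to 0.973). For Cryab they were the lens gene Grifin (0.969) and, from outside the lens lists, Tmem40 (0.949) and Gm11837 (0.944). For Crygn they were Mir466i (0.823), 5830415F09Rik (0.807) and Trmt2b (0.781), none of which is a lens gene of the lists. Among the members themselves, the 9 other than Crygn correlated with each other at r of 0.889 to 0.993, and Crygn with any of them at 0.365 to 0.544.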

How the data were processed

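Retinal RNA of 12 libraries from 6 mice was sequenced from 1 µg of total RNA by a stranded poly(A) protocol as paired 50 base reads. The study counted reads over RefSeq exons, and the submitters' processing notes name TopHat2, Bowtie2, Cufflinks, Cuffdiff and mm10 without roles. The authors deposited 1 table of values with 1 column per library. That the unit is FPKM was inferred from the deposited values, and no counts or depths are stated in it. Depth was back-calculated from the smallest steps of 1904 genes with 1 transcript, where 80.9% to 87.9% of values lay within 0.15 of a whole number, which is too few for a count test. No interval of counting error was therefore given, and small values have the error of few fragments.

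Of 24340 rows, 5831 were 0 throughout and 18509 were tested, and 27 rows had lost their symbols to dates. The fit used limma 3.58.1 (R 4.3.3) on log2(FPKM + 1), with 4 group means, a variance trend and Benjamini-Hochberg adjustment over all 18509 rows. A fold on this scale understates changes of low genes. Contrasts were IOP against control in each arm, their average and difference, GCV against no GCV in each eye, and the slope on the lens fiber index within groups. The index was tested over mice by an exact sign-flip permutation test. Only the slope and the IOP contrast without GCV, with the index in the model, were run on simulated data with independent normal noise. The other tests were not. Replicates are separate mice, and both eyes of a mouse share its number. Deviations of the 2 eyes from their group means correlated at -0.12, 0.13, 0.21, 0.39, 0.17 and 0.10 in mice 1 to 6, and the pairing comes from the animal. The fit with the mouse as a replicate block was an alternative to the main design and called 7 of 10 members in the average against 5 without it.

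The members and gene lists were chosen with earlier results of these data known. Named genes were the 10 members, the gamma cluster, the lens fiber genes (1 of them is not reported here), up to 3 genes with the smallest p of each other list when called, and the 3 rows most correlated with each member. Outside this rule, Foxe3 was picked after its values were seen, and Cryz, Cryl1 and Cryzl1 are named as the other genes of a short list. Promoters came from RefSeq (GRCm38.p6) and transcripts from GENCODE. Tried besides were median-ratio scaling, no trend, a 1 FPKM filter in 3 libraries, a pseudocount of 0.1, an adjusted p under 0.1, the index as a covariate and each library left out. Leaving out both eyes of a mouse, the index with the block and the index as log2 of summed FPKM as a covariate were added after seeing the data.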

Additional observations from a re-analysis of the deposited data

How the results depend on the processing

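In both arms taken singly, in their difference and in both GCV contrasts, 0 of 10 members were called in every alternative run. In the average over both arms, 5 called members became 9 at an adjusted p under 0.1, 8 with a pseudocount of 0.1, 9 with the filter, 3 with no trend, and 0 with the lens fiber index as a covariate, whether as the mean, as log2 of summed FPKM or with the mouse block. They were 0 to 9 with 1 library left out and 8, 0, 2, 1, 0 and 0 without both eyes of mice 1 to 6. The 6 called slopes became 0 with the mouse as a replicate block, 0 to 6 with 1 library left out and 4, 3, 0, 0, 0 and 3 without both eyes of mice 1 to 6. The index difference was 1.59 to 2.06 without each mouse, where 5 pairs allow no exact permutation p below 0.0625. The fit on only the groups compared could not differ for the average, which uses all 4 groups, and the eye-pair correlation was not run. The cause of each lost or added call was not tested.

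With the index as a covariate and GCV, Cryaa was -0.46 and Crygs -0.16. With the index as log2 of summed FPKM, Cryab was -0.14 without GCV, Cryaa -0.61, Crybb2 -0.015 and Crygs -0.26 with GCV, and Cryaa -0.082, Cryab -0.023, Cryba1 -0.23, Cryba2 -0.41 and Crybb1 -0.13 in the average. With index and block, Cryab was -0.18 with GCV and -0.084 in the average, and the Crym slope with the block was 0.091. None of these was called. Crygn with a pseudocount of 0.1 was 0.11 without GCV, 0.93 with GCV and 0.52 in the average. With 1 library left out it ran from -0.36 to 0.46 without GCV, -0.75 to 1.05 with GCV and -0.39 to 0.51 in the average, and its slope from -0.22 to 1.18. Without both eyes of mouse 1 it was 1.03 with GCV and 0.50 in the average with a slope of -0.25, and without both eyes of mouse 6 it was 0.78 without GCV and 0.35 in the average. Low fragment numbers limit Crygn, Cryga and Crygf, and the depth of IOP of mouse 6 limits all genes below about 1 FPKM there.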
